A study of Mus musculus with 22 samples.

Results

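The 9 genes described here, Myc, Myb, Mycn, Ccnd2, Ccnd3, Cdk6, Cdk4, E2f2, and Cdkn1b, are regulators of cell proliferation among 21842 protein-coding genes of the GENCODE annotation of the mouse genome (mm10). They were chosen by name, as proliferation genes, and not by a measured value. Each gene was examined in a window that spans the gene body and 100 kb on either side. The 9 windows held 52 of 16244 H3K4me3 regions and 83 of 24299 H3K27ac regions. A region is the union of the overlapping ChIP-seq peaks of 1 histone mark over its 10 peak lists, and its length in a list is the number of base pairs that the peaks of that list cover there, so that 0 means that the list holds no peak.

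The marks were profiled in G1ER (G1E-ER4) cells, a mouse erythroid progenitor line. All samples are of this line, which derives from Gata1-null cells and constitutively expresses GATA1 fused to the ligand-binding domain of the estrogen receptor, and all were grown with SCF and erythropoietin. The undifferentiated group (0 h) was compared with the groups differentiated for 2, 6, 12, and 24 h with β-estradiol, which activates GATA1-ER. There were 2 lists per mark and time point, and 1 CTCF list each at 0 h and 24 h. The line is a single subclone, and nothing in the labels says whether the 2 lists of a time point came from separate cultures. A figure legend of the paper describes the ChIP-seq replicates at these time points as independent experiments. How the cultures were separated is not detailed there. The p-values therefore measure the spread between replicate lists within a single line. H3K4me3 lists held 12925 to 14452 peaks and H3K27ac lists 17247 to 18333. Read counts are not part of the lists, and the depth is therefore unknown. Of 10 erythroid marker genes, 9 had an H3K4me3 peak and 6 an H3K27ac peak within 2 kb of the transcription start site (TSS) in at least 1 list. Tal1 had neither, and Hbb-bt and Nfe2 were among those with no H3K27ac peak there. Of 12 T cell, B cell, macrophage, and fibroblast markers, none had an H3K4me3 peak in any of the 10 lists, and only Cd68 had an H3K27ac peak, in 9 lists.

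H3K4me3 is deposited mainly at active or poised promoters, and H3K27ac at active promoters and enhancers. MYC and MYB are transcription factors that keep erythroid progenitors cycling, and the genes of both are known to be turned down as GATA1 drives terminal differentiation. D-type cyclins (Ccnd2, Ccnd3) activate the kinases CDK4 and CDK6, which phosphorylate the retinoblastoma proteins and so release E2F factors such as E2F2. Cdkn1b encodes p27, an inhibitor of cyclin-dependent kinases that accumulates as cells leave the cycle. MYC family members, among them MYCN, bind the E-box, and GATA1 binds GATA sites.

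H3K4me3 marked the start sites of 8 of the 9 genes in every list from 0 to 24 h, and the length of none of these peaks passed the test between 24 h and 0 h. Mycn, which is expressed mainly in embryonic and neural cells, had no peak of either mark at its TSS. The 9 H3K4me3 regions at a member's own TSS (Ccnd3 had 2) had a peak in 10 of 10 lists each. Across the genome 94.0% of the H3K4me3 regions within 1 kb of a protein-coding TSS had a peak in all 10 lists.

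The Myc region (chr15:61983199-61990560), which covers all exons of this short gene, was 6739 and 6841 bp long at 0 h, 7357 and 6890 at 2 h, 7029 and 7006 in the 6 h lists, 7129 and 6846 at 12 h, and 7107 and 7070 bp at 24 h. The 24 h lists lay above those at 0 h by less than the range at 2 h, and the log2 difference in length was 0.06 (limma adjusted p = 0.777). The Myb region (chr10:21155655-21162601), over the promoter and first exons, was 6671 and 6717 bp long at 0 h, 6659 and 6633 at 2 h, 6807 and 6098 in the 6 h lists, 5923 and 6799 at 12 h, and 5778 and 5739 bp at 24 h. Both 24 h lists were the shortest of the 10, but the log2 difference of -0.21 did not pass over all regions tested (adjusted p = 0.358). Ccnd2 had the longest H3K4me3 region of the set (chr6:127147231-127156327), with 7959 to 8908 bp in the 10 lists. Its means at 0 h and 24 h differed by -0.03 on the log2 scale (adjusted p = 0.955).

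Ccnd3 had H3K4me3 at both of its start sites, an upstream site (chr17:47504200-47506170) of 1523 to 1908 bp and an internal site 90.4 kb downstream (chr17:47592563-47598317) of 5136 to 5755 bp. The kinase genes Cdk6 (chr5:3340116-3346249) and Cdk4 (chr10:127062716-127065761) had regions of 5522 to 6063 bp and 2110 to 2969 bp. The E2f2 region (chr4:136171119-136175727) spanned 3685 to 4372 bp. The Cdkn1b region (chr6:134919116-134924727) varied between the lists of a time point, at 4016 and 4978 bp at 0 h and 5612 and 4838 bp at 24 h. In all of these the values at 0 h and 24 h overlapped or differed by a log2 difference of at most 0.21 in size, with limma adjusted p-values from 0.58 to 1.

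**Figure D1:**
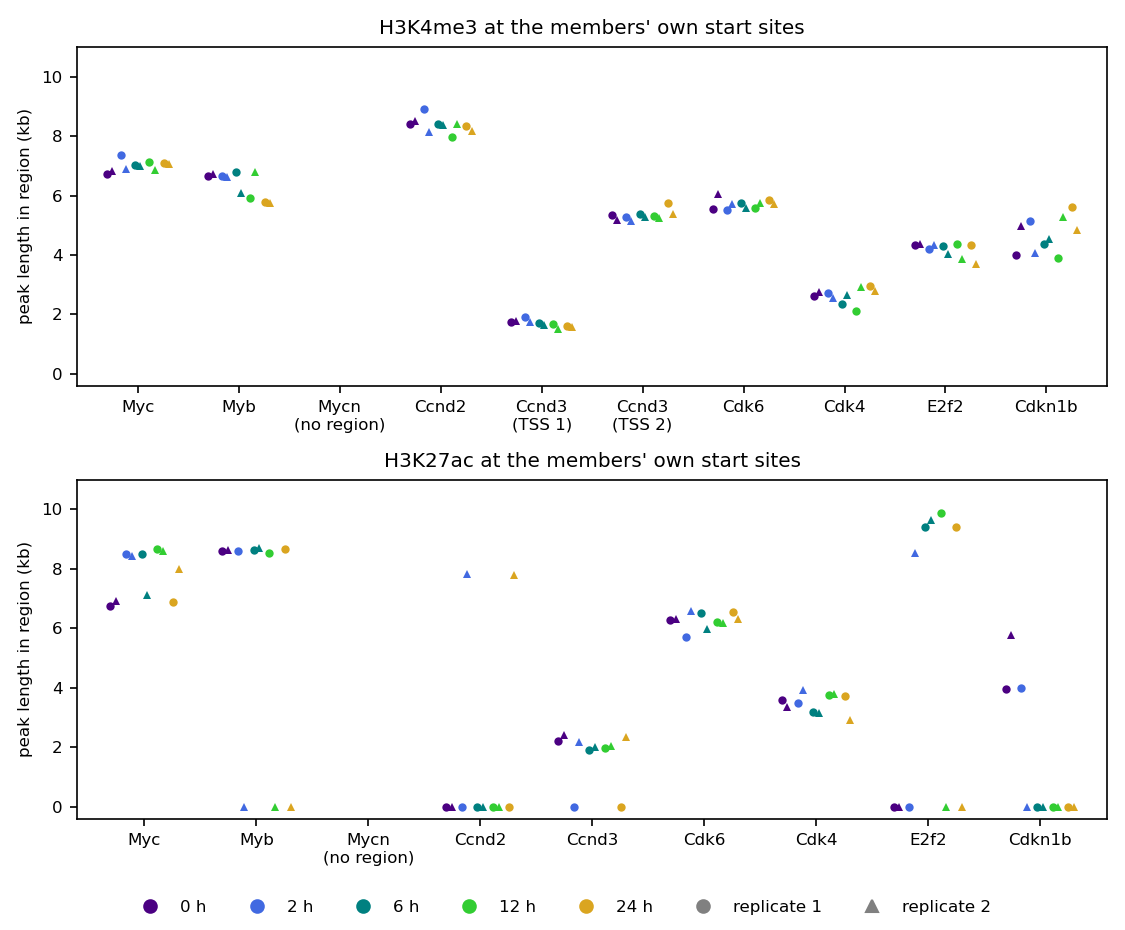
Length of H3K4me3 (top) and H3K27ac (bottom) peaks in kb at the members' own start sites, with 1 point per list, coloured by hours with estradiol and shaped by replicate number; 0 means no peak in that list, and Mycn had no region. H3K4me3 was found in every list at all 9 start-site regions, whereas H3K27ac at Myb, Ccnd2, Ccnd3, E2f2, and Cdkn1b was present in some lists and absent from others.

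H3K27ac at the same start sites was less uniform. Myc, Cdk6, and Cdk4 had a start-site H3K27ac peak in all 10 lists, the upstream site of Ccnd3 in 8, Myb in 7, E2f2 in 5, Cdkn1b in 3, and Ccnd2 in 2. Thus 3 of 8 own-TSS regions had a peak in every list, where 85.6% of all H3K27ac regions within 1 kb of a protein-coding TSS did. The internal start site of Ccnd3, which had H3K4me3 in every list, had no H3K27ac peak in any list. Peaks missing from the lists do not measure absence of the mark.

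At Myc (chr15:61983156-61992166) the H3K27ac length was 6763 and 6927 bp at 0 h, 8496 and 8435 at 2 h, 8485 and 7131 in the 6 h lists, 8660 and 8610 at 12 h, and 6890 and 7986 bp at 24 h. Both lists at 2 h and at 12 h lay above both at 0 h, and of the 24 h lists 1 lay between the 0 h values and 1 above them. The log2 difference between 24 h and 0 h was 0.11 (adjusted p = 0.618), and the F test over all time points did not pass (adjusted p = 0.449). At Cdk6 (chr5:3340084-3346663) the 10 lists held 5692 to 6570 bp, and at Cdk4 (chr10:127062701-127066669) 2907 to 3918 bp, with log2 differences of 0.03 and -0.07 (adjusted p = 0.936 and 0.805). These kinase promoters had both marks in every list.

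The Cdk4 and Cdk6 promoters hold E-boxes (CACGTG), and the promoters of E2f2 and Mycn hold E2F sites (TTTCGCGC or TTTGGCGC), which is why these 4 are shown. RefSeq promoter entries (GRCm38.p6, each 300 bases, on the gene's strand) were matched for 7 of the 9 genes, with 9 entries. Myc and Ccnd2 were not matched. Capitals mark E-boxes, E2F sites, and GATA sites on either strand, which were searched as AGATAA or as AGATAG, and likewise as TGATAA or as TGATAG. The Cdk4 entry (chr10:127063285-127063584) has 4 E-boxes, the Cdk6 entry (chr5:3343643-3343942) 1, the E2f2 entry (chr4:136172024-136172323) 1 E2F site, and the Mycn entry (chr12:12941787-12942086, minus strand) 3 E2F sites, of which 2 overlap. An E-box is found in 7.15% and an E2F site in 0.813% of all 32851 promoter entries, and none of the 9 entries of these genes has a GATA site, which 29.8% of all entries have. Such matches are letters in a window and not measured binding.
Cdk4 promoter: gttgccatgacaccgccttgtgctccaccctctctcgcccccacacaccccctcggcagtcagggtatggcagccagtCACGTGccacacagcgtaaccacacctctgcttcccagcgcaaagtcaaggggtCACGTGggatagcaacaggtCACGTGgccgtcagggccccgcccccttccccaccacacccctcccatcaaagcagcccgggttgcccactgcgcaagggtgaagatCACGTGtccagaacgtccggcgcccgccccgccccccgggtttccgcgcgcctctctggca
Cdk6 promoter: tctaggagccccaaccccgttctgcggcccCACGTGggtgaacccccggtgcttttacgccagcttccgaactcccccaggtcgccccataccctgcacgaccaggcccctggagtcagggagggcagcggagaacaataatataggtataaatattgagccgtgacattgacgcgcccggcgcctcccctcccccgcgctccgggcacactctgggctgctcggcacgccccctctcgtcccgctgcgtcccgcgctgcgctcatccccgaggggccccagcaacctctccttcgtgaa
E2f2 promoter: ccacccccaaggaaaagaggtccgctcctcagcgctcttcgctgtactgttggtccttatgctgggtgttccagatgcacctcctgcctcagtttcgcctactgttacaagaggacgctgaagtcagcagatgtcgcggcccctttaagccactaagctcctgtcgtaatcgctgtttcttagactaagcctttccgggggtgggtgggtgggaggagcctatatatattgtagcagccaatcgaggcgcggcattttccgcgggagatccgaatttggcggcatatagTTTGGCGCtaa
Mycn promoter: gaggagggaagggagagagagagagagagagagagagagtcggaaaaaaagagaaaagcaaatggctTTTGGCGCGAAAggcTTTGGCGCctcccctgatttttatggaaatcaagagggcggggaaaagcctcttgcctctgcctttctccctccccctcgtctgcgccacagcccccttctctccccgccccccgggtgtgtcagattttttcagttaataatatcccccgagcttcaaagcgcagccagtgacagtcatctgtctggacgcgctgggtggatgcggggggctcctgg

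At Cdkn1b, the gene of the inhibitor p27, the start-site H3K27ac peak (chr6:134919221-134925065) was listed early and not later. It was 3972 and 5759 bp long at 0 h and 3984 bp in replicate 1 at 2 h, and no peak was listed in replicate 2 at 2 h or in any of the 6 lists from 6 to 24 h. By the presence rule, a peak in both lists at 1 time point and in neither at the other, the region was lost by 24 h. The log2 difference of -4.64 (SE 1.26) did not pass (limma adjusted p = 0.093). It passed without either of the 2 h lists. Leaving out either also removes the disagreement of these lists (3984 bp and no peak) from the spread, so that passing is no support. The 3 peaks had scores of 674.43, 269.78, and 517.34, well above the lowest deposited score of 50, and H3K4me3 stayed in all 10 lists at this site. The adjoining H3K27ac region 8.6 kb downstream (chr6:134926331-134931662), at the start of the lincRNA gene Lockd, had a peak of 5332 bp with a score of 654.52 in replicate 2 at 0 h and none in the other 9 lists, while H3K4me3 there was in all 10 lists. A strong peak was thus listed in only 1 of the 0 h lists, as the start-site peak was in only 1 at 2 h, and the part of such disagreement in the loss was not tested. No H3K27ac peak in any list was longer than 8.97 kb. Whether a longer peak over both regions went unlisted was not tested, so the lists do not show that the mark itself was lost. The Cdkn1b entry (chr6:134920151-134920450) is shown as the start site at which only 1 of the marks was lost from the lists, and none of the motifs above is in it.
Cdkn1b promoter: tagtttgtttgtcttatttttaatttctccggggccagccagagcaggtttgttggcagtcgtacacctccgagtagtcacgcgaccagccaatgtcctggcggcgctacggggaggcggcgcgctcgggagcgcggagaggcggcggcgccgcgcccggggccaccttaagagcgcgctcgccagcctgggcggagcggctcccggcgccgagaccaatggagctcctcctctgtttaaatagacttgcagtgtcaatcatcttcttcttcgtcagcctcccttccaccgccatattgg

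At Myb (chr10:21154591-21163325) the H3K27ac peak was 8604 and 8628 bp long at 0 h, 8599 bp and absent at 2 h, 8633 and 8694 in the 6 h lists, 8540 bp and absent at 12 h, and 8679 bp and absent at 24 h. The peak was thus either of almost constant length or not listed, and replicate 2 lacked it at 2, 12, and 24 h. The log2 difference of -2.73 had an SE of 2.63 (adjusted p = 0.606). Its scores, 53.38 to 72.44, lay just above the lowest deposited score. At E2f2 (chr4:136170947-136180997), whose product drives S phase genes, no peak was listed at 0 h, replicate 2 at 2 h held 8545 bp, both lists at 6 h held 9396 and 9640 bp, and replicate 1 alone held 9884 bp at 12 h and 9422 bp at 24 h (adjusted p = 0.605). Ccnd2 (chr6:127147852-127155722) had a peak of 7838 bp in replicate 2 at 2 h and of 7811 bp in replicate 2 at 24 h and none in the other 8 lists. The upstream Ccnd3 site (chr17:47503883-47506399) had 1908 to 2417 bp in 8 lists and no peak in replicate 1 at 2 h and at 24 h. None of these 4 differences passed, and at each of the 4 sites the lists of at least 1 time point disagreed.

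Disagreement between the lists of a time point was counted, since it was more frequent in the longest regions. The 9 windows held 8 H3K27ac regions, with peaks in at least 2 lists, whose median covered length was 7 kb or longer. Such a length can sum several peaks of a list. Of 31 time points with a peak in these regions, 16 had it in only 1 of the lists (51.6%). For all such long H3K27ac regions of the genome the share was 29.4%, against 13.9% for all those of 5 kb or longer and 14.6% for those under 5 kb. Peaks of 7 kb or longer had a median score of 107, against 444.5 for peaks of 2 to 5 kb, and no H3K27ac peak in any list was longer than 8.97 kb. Of the peaks of 7 kb or longer 44.7% scored under 100, against 5.91% of those of 2 to 5 kb. The part of this in the missing peaks at Myb, Ccnd2, E2f2, and Cdkn1b, and at the internal start site of Ccnd3, was not tested. The E2f2 start-site region held no single peak of 7 kb or longer. Its longest peak was 5328 bp, and its peaks scored 89.73 to 536.29. Together the peaks of a list covered 8545 to 9884 bp there. Whether a joined peak went unlisted in the other lists was not tested. A missing peak is not a measured absence of the mark.

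Beyond the start sites, H3K27ac was richest around Myb, Ccnd3, and Cdk6 and nearly absent around Mycn and E2f2. The 9 windows held 22 distal H3K4me3 and 55 distal H3K27ac regions, that is, regions over 1 kb from every protein-coding TSS. The other non-start-site regions, 21 and 20, lay at start sites of neighbouring genes. Over the 10 lists the distal H3K27ac length was 23.9 to 51.6 kb (median 32.4 kb) in the Myb window, 24.3 to 31.8 kb (median 26.4 kb) at Ccnd3, and 12.3 to 25.9 kb (median 21.7 kb) at Cdk6. It was 4.36 to 6.56 kb at Cdk4, 2.38 to 6.36 kb at Myc, 2.74 to 7.65 kb at Cdkn1b, and 2.65 to 9.87 kb at Ccnd2. At E2f2 the median was 0.00 kb and the highest value 0.674 kb, and at Mycn a single list held 364 bp. Windows differ in size, from 204.4 kb at Cdk4 to 389.5 kb at Cdk6. By median, Myb, Ccnd3, and Cdk6 led in that order, and the ranges of these 3 genes overlapped, whereas all their values lay above those of the other 6 genes.

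**Figure D2:**
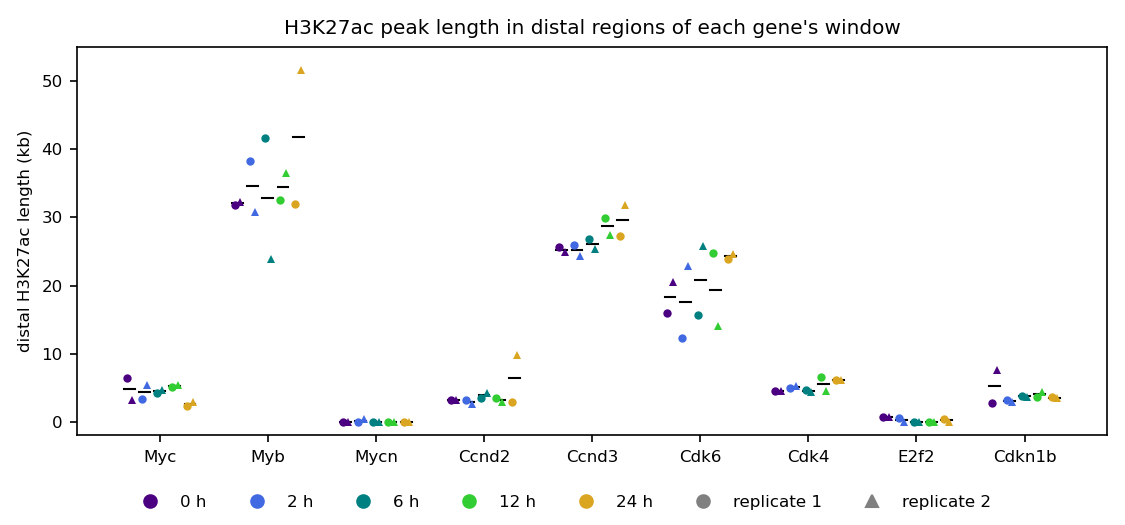
Total H3K27ac peak length in kb within the distal regions of each gene's window, with 1 point per list, coloured by hours with estradiol and shaped by replicate number; black bars are the means of the 2 lists. Myb, Ccnd3, and Cdk6 lie above the other genes at all time points, and the lists of a time point spread widely at Myb and Cdk6.

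Between 0 h and 24 h the mean distal H3K27ac length of Myb was 32.1 ± 0.321 kb (SD, n = 2) and 41.7 ± 13.9 kb, that of Ccnd3 25.3 ± 0.574 and 29.6 ± 3.2 kb, that of Cdk6 18.3 ± 3.3 and 24.3 ± 0.473 kb, and that of Myc 4.77 ± 2.25 and 2.68 ± 0.415 kb. None of the 8 genes tested passed in limma over 14160 genes, where 9.62% passed, and 1 of them (Cdk4, log2 difference 0.42, SE 0.17, adjusted p = 0.174) had an unadjusted p under 0.05. The share of all genes at that unadjusted level was not counted. Myc had the log2 difference of -0.72 (SE 0.35, adjusted p = 0.237), and both of its 24 h lists, at 2382 and 2969 bp, lay below the other 8, which began at 3179 bp. The genes whose distal H3K27ac length followed a like course over the 10 lists, on other chromosomes, were Slc2a12, Gmpr2, and Foxd3 for Myc (Pearson's r on the log2 scale 0.941, 0.933, and 0.928) and Tkfc, Tmem138, and Cyb561a3 for Myb (0.81 each). The latter 3 are all on chromosome 19 and have the same r, and lists share their total peak number, so these values describe and do not test.

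The distal H3K27ac region of the largest mean length was found in all 10 lists for 6 genes, and of these only that of Cdkn1b, described below, passed a test. At Myc it lay 45.0 kb downstream (chr15:62028567-62033322, intergenic), with 3930 and 1645 bp at 0 h and 1732 and 2078 bp at 24 h (adjusted p = 0.643). For Cdk6 it lay in an intron 15.1 kb from the TSS (chr5:3353921-3364138), where the 10 lists held 5669 to 9478 bp (adjusted p = 0.67). In Ccnd3 it was in the gene body 17.2 kb from the upstream TSS (chr17:47519660-47524940), with 3447 and 4215 bp at 0 h and 4605 and 4870 bp at 24 h (adjusted p = 0.177). Ccnd2 and Cdk4 had theirs at 18.0 and 72.6 kb downstream, with means of 1.95 and 2.99 kb over the lists (adjusted p = 0.65 and 0.682).

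Over all classes, 1 of 48 H3K4me3 regions tested in the 9 windows was shorter at 24 h than at 0 h and 0 were longer in limma, beside 1.11% shorter and 0.471% longer over 14862 regions. At an unadjusted p under 0.05, 7 were shorter and 2 longer. The share of all regions at that level was not counted, so no direction is read from these numbers. For H3K27ac, 2 of 71 were longer and 3 shorter, beside 3.30% and 3.02% over 21011 regions. The F test over all time points passed for 1 H3K4me3 and 3 H3K27ac regions, beside 1.25% and 5.61%. Of the H3K27ac regions that passed, 3 (1 longer and 2 shorter, and all 3 of the F test) had peaks only in the 2 lists at 24 h or at 0 h, which alone brought them past the filter of 2 lists, so that their passing is no support. With a peak required in at least 5 lists, 2 passed at 24 h and 0 by the F test. By the presence rule 0 H3K4me3 regions of 52 were gained and 3 lost, beside 0.456% and 3.88% of all regions, and 1 H3K27ac region of 83 was gained and 4 lost, beside 3.43% and 4.18%. These shares are near those of all regions. The median log2 difference of the regions tested was -0.08 for H3K4me3 and 0.02 for H3K27ac, against -0.035 and 0.007 over all regions.

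Myb held the most regions that passed a test or were gained or lost by 24 h, among 8 H3K4me3 and 14 H3K27ac regions in its window. Of 6 H3K4me3 regions tested 1 passed at 24 h, and 2 were lost. For H3K27ac 2 of 12 passed, and 1 region was gained. The shares over all regions are given above, and counts this small were not tested against them. All lay in the intergenic stretch upstream of the Myb promoter toward Hbs1l. Erythroid enhancers of Myb are known to lie there, and the annotation also places the lincRNA gene Gm33728 there. An H3K4me3 region 81.4 kb upstream (chr10:21241654-21243083) was 950 and 1202 bp long at 0 h, 1092 and 842 at 2 h, 1078 and 599 in the 6 h lists, and 1283 and 1306 at 12 h, and had no peak in either list at 24 h. All 8 lists up to 12 h had the peak, and both at 24 h lacked it (a log2 change of -2.67 with an SE of 0.28 and a limma adjusted p = 0.00514, F test adjusted p = 0.0146). H3K27ac at the same place (chr10:21238216-21246435) was present at 24 h with 7540 and 7809 bp, beside 7419 and 7152 bp at 0 h, and was missing from 1 list at 2 h (adjusted p = 1). A second H3K4me3 region 67.9 kb upstream (chr10:21228499-21229184), with 605 and 528 bp at 0 h, 0 and 561 at 2 h, and 590 and 401 in the 6 h lists, had no peak in any list at 12 or 24 h and was lost by the presence rule (adjusted p = 0.24). It passed without replicate 1 at 2 h, which removes the disagreement of the 2 h lists from the spread, so that passing is no support. With equal numbers of top-scoring peaks per list the call at -81.4 kb was lost (adjusted p = 0.205). The scores of these peaks were low, 50.7 to 150.63 at -81.4 kb and 50.41 to 108.14 at -67.9 kb.

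H3K27ac was listed elsewhere upstream at 24 h alone. The region 34.1 kb upstream of the Myb TSS (chr10:21190840-21199335) had no peak in any of the 8 lists from 0 to 12 h and 7792 and 8327 bp at 24 h (a log2 difference of 5.37). In replicate 2 at 24 h a further peak of 4191 bp adjoined it at -27.7 kb. H3K4me3 was present inside this region, 35.7 kb upstream (chr10:21195837-21197501), in all 10 lists, with 1410 and 1143 bp at 0 h and 1349 and 724 bp at 24 h (adjusted p = 0.727). The H3K27ac peaks at -34.1 kb scored 115.36 and 59.61, and they are of the length, 7 kb or longer, at which lists disagreed more often. No H3K27ac peak in any list was longer than 8.97 kb. Whether a longer peak over the regions at -34.1 and -27.7 kb went unlisted before 24 h was not tested. Since the region at -34.1 kb entered the fit only through the 24 h lists, its p-value is no support for the difference. An H3K27ac region 93.2 kb upstream (chr10:21251024-21257388), at the start of Gm33728, was shorter at 24 h, at 4244 and 3936 bp, than at 0 h, at 6132 and 5634 bp (log2 difference -0.50, SE 0.10, adjusted p = 0.0409), but both 6 h lists (4725 and 4210 bp) were also short and both 12 h lists (6022 and 5048 bp) long, and the F test did not pass (adjusted p = 0.124). Leaving out 1 list moved its adjusted p above 0.05 for 8 of the 10 lists. A 14.3 kb region at -63.6 kb was present in 5 lists and absent from 5, with 1 list of each at 6, 12, and 24 h (adjusted p = 0.617).

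The sequences at the centres of the H3K27ac region at -34.1 kb and the H3K4me3 region at -81.4 kb are shown because their peaks appeared in and disappeared from the 24 h lists. They are the 300 bases in the middle of the part that every list with a peak covers, from the plus strand of GRCm38.p6. The window at -34.1 kb holds 0 GATA sites and that at -81.4 kb 1, in capitals, and neither has an E-box or E2F site. The windows at -93.2 kb and -67.9 kb of Myb hold 2 and 0 GATA sites. A GATA site is found in 26.2% of the same windows of all H3K4me3 regions and in 36.5% of those of all H3K27ac regions.
Myb -34.1 kb, chr10:21195205-21195504: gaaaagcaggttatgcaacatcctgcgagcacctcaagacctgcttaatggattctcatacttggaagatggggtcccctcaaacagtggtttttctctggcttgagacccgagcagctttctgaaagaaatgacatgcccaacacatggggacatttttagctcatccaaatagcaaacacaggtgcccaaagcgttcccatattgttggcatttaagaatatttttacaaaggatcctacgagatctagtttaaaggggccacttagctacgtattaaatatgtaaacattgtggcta
Myb -81.4 kb, chr10:21242209-21242508: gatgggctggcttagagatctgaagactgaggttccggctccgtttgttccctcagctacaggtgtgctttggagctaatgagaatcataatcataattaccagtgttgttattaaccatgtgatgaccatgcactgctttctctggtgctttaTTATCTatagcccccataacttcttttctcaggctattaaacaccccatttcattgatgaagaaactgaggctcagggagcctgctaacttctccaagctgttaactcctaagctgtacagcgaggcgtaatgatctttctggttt

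**Figure D3:**
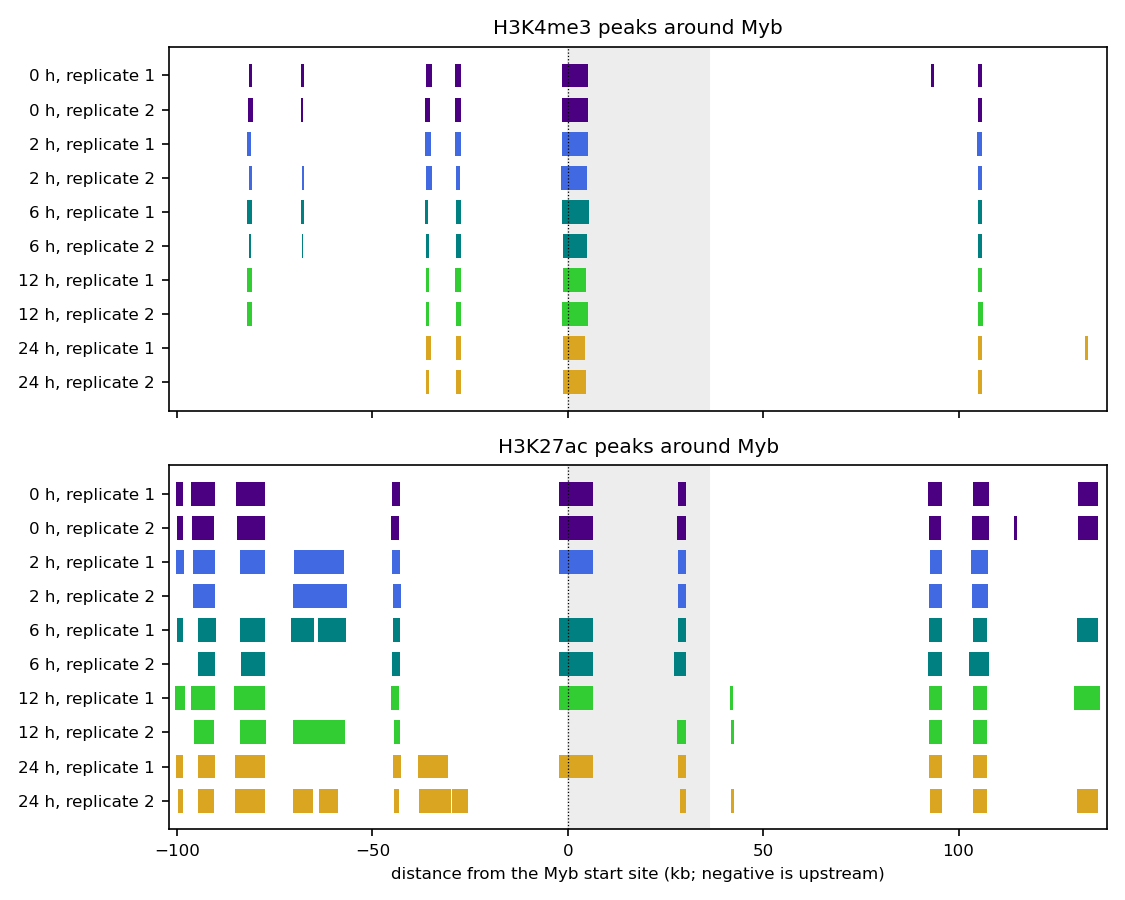
Peaks of H3K4me3 (top) and H3K27ac (bottom) in each of the 10 lists, drawn to scale against the distance in kb from the Myb TSS (dotted line), with the Myb gene body shaded and colours by hours with estradiol. The H3K4me3 peak at -81.4 kb is missing from both 24 h lists, and the H3K27ac peak at -34.1 kb is present only in these.

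Cdkn1b had the region that lengthened. It lies 31.2 kb downstream of the TSS (chr6:134950288-134952919) inside the lincRNA gene Lockd, far downstream of the start of that gene. Its H3K27ac length was 1640 and 1422 bp at 0 h, 2007 and 1789 at 2 h, 2487 and 2272 in the 6 h lists, 2359 and 2352 at 12 h, and 2436 and 2176 bp at 24 h. All lists from 2 h on were longer than both at 0 h, and those from 6 h on were longer than both at 2 h (24 h against 0 h, log2 difference 0.53, SE 0.10, limma adjusted p = 0.031; F test adjusted p = 0.0692). The call was lost without replicate 2 at 0 h (adjusted p = 0.136), without either 12 h list (0.0551 and 0.055), and without either 24 h list (0.133 and 0.0581). The start-site H3K27ac peak in the same window was lost from the lists, a difference that did not pass (limma adjusted p = 0.093). Whether this loss and the lengthening are related was not tested. The centre of the region at 31.2 kb, chosen as above, holds 3 GATA sites. At least 1 is found in 36.5% of the windows of all H3K27ac regions.
Cdkn1b +31.2 kb, chr6:134951298-134951597: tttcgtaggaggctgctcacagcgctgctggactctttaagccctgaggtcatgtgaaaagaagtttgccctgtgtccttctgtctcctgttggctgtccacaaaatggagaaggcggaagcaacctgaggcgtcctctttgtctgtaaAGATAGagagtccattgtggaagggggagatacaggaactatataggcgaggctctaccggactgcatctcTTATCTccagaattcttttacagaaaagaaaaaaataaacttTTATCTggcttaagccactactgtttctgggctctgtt

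The other losses of H3K27ac were short peaks near the lowest score. A region 94.8 kb downstream of the E2f2 TSS, in an intron of Tcea3 (chr4:136266820-136267536), had 639 and 674 bp at 0 h and no peak in the other 8 lists (log2 difference -2.10). Its peaks scored 73.22 and 68.52. A region 34.4 kb downstream at the Asap3 TSS (chr4:136206288-136207208) had 626 and 726 bp at 0 h, 456 and 898 in the 6 h lists, 694 bp in 1 list at 12 h, and none at 2 or 24 h (adjusted p = 0.141). It passed without either 12 h list, which likewise removes the disagreement of those lists from the spread and is no support. In the Cdk6 window a region 228.1 kb from the TSS, at the start of 1700109H08Rik (chr5:3571347-3572559), had 681 and 690 bp at 0 h and no peak in any later list (log2 difference -2.15). Both regions with peaks at 0 h alone entered the fit only through the 0 h lists, so their p-values are likewise no support, and both lie nearer to another gene than to the proliferation gene whose window holds them. The centre of the Tcea3 intron region holds none of the motifs.
E2f2 +94.8 kb, chr4:136267046-136267345: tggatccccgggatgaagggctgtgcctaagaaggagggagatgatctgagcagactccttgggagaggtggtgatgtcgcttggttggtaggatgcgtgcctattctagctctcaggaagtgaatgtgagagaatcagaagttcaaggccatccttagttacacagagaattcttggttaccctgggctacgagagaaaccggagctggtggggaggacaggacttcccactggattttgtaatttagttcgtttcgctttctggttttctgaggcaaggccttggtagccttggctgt

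Around Mycn, a single H3K4me3 region was found, 29.6 kb downstream (chr12:12912036-12912509), where the annotation places the lincRNA gene Gm40271 and the processed pseudogene Rpl36-ps3. Reads of a pseudogene can be split among near-identical copies, which was not tested here. It was 455 and 358 bp long at 0 h, 364 and 357 at 2 h, 373 and 370 in the 6 h lists, and 378 and 380 at 12 h, and had no peak at 24 h. The peak was lost by the presence rule, and the log2 difference of -1.60 (SE 0.31) did not pass (adjusted p = 0.0605), whereas it did with a pseudocount of 50 bp (0.0257) or with scaled lengths (0.0488). With this region, 3 of 52 H3K4me3 regions in the 9 windows were lost by 24 h, beside 3.88% of all H3K4me3 regions. The others lay around Myb.

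**Figure D4:**
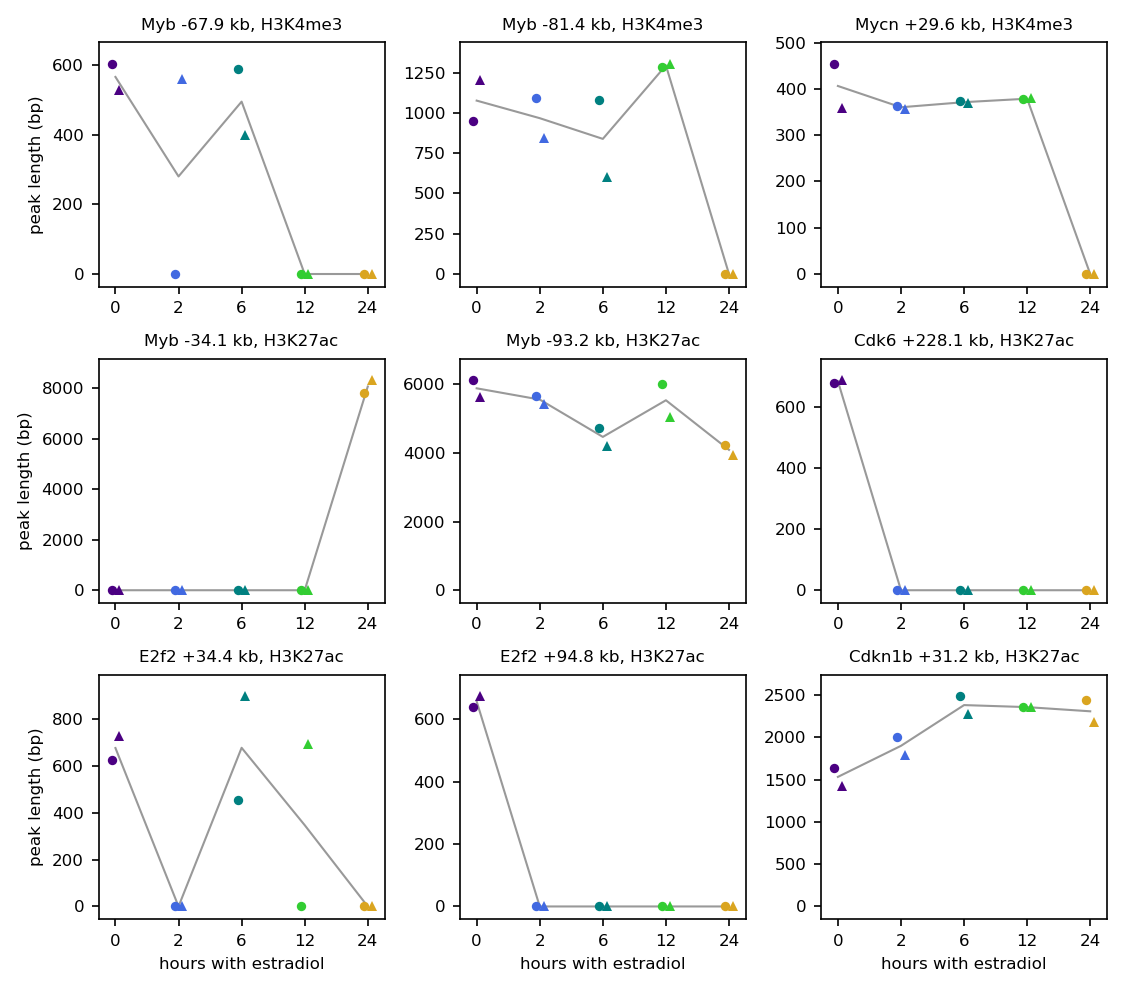
Peak length in bp against hours with estradiol for the 9 regions away from the members' own start sites that passed a test or were gained or lost by 24 h; circles are replicate 1, triangles replicate 2, and the grey line joins the means. Myb -34.1 kb has listed peaks only at 24 h, of 7792 and 8327 bp, and 0 means no listed peak. Cdkn1b +31.2 kb lengthens up to 6 h and stays near that length, and the 2 regions at Cdk6 +228.1 kb and E2f2 +94.8 kb have peaks at 0 h only.

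Other genes of the cell cycle, E2F, and MAX networks were mostly marked throughout. Of 52 such genes, 49 had an H3K4me3 region at their own TSS, 47 of them in all 10 lists, and 46 had an H3K27ac region, 43 in all 10. Ccnd1, Cdkn1c, and Mycl had neither. None of the 52 H3K4me3 regions tested passed between 24 h and 0 h in limma (4 at an unadjusted p under 0.05). Of 47 H3K27ac regions tested 3 were longer at 24 h and 0 shorter, beside 3.30% and 3.02% of all regions (7 at an unadjusted p under 0.05, all of them longer). For both marks the share of all regions at the unadjusted level was not counted, so no direction is read from those numbers. Ccna2, the S phase cyclin, had 3654 and 3888 bp at 0 h and 5626 and 5194 bp at 24 h (log2 difference 0.50, SE 0.07, adjusted p = 0.00732). E2f4, an E2F that acts mainly as a repressor, had 3780 and 3023 bp at 0 h and 6236 and 5812 bp at 24 h (0.80, SE 0.14, adjusted p = 0.0188). Btg2, an antiproliferative gene, had 2387 and 2340 bp at 0 h and 3735 and 5096 bp at 24 h (0.83, SE 0.18, adjusted p = 0.0442). In all 3 both 24 h lists were longer than both 0 h lists.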

How the data were processed

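ChIP-seq peak lists of H3K4me3 and H3K27ac (0, 2, 6, 12, and 24 h, 2 lists each) and of CTCF (0 and 24 h, 1 list each) were analyzed. Per the methods of the study, the authors aligned reads to mm10 with Bowtie2, kept uniquely mapped reads, and ran MACS (option --nomodel) on each library. The version, control, and threshold of the caller, and the CTCF methods, are not given in the sources used here. The sample labels name a human build, but the positions fit mm10. The deposited score is the authors' value per peak and was used only to rank, filter, and describe peaks. Positions are the deposited starts and ends. Without read counts the depth and its precision are unknown.

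Groups came from the sample titles. Peaks of a mark were merged over its 10 lists into regions. Those found in 2 or more lists entered a limma fit (eBayes, trend option) of log2(covered bp + 200), with a mean per time point, for 24 h against 0 h and by an F test over all time points, with Benjamini-Hochberg adjustment over all regions (adjusted p under 0.05). This scale understates changes of short peaks, and lengths that jump to 0 do not have the normal errors of the limma model, so its adjusted p-values may be too small for them. An exact test of 2 lists against 2 cannot go below p = 0.333. Own TSS means within 1 kb of the TSS of a protein-coding transcript of the gene, and distances run from the region centre to 1 TSS per gene (best APPRIS level, then longest transcript). Named regions were those at own start sites, those that passed a test or were gained or lost by 24 h, and for each gene the distal H3K27ac region of the largest mean length. Network genes that passed were named, at most 6 per mark. The members, lists, and rules were chosen with earlier results of these data known. The fit was tested on simulated data beforehand. R 4.3.3 with limma 3.58.1 and Python 3.11.15 were used.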

Additional observations from a re-analysis of the deposited data

Results flagged for a closer look

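CTCF, a protein of chromatin loop anchors, was profiled apart from the histone marks and enters no comparison above. The 9 windows held 78 CTCF peaks at 0 h and 94 at 24 h, of 33193 and 41473 in the whole lists, so the windows' counts differ about as the list sizes do, and 73 of each overlapped a peak of the other list. There was 1 list per time point, so the difference has no replicate check. A CTCF peak lay within 1 kb of the Myc TSS at 0 h (1 peak) and not at 24 h, 2 lay within 1 kb of the Cdk6 TSS at both times, and 1 lay at the E2f2 TSS at 24 h only. The Cdk6 window held 8 peaks at 0 h and 14 at 24 h, and the Ccnd3 window 16 and 19.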

How the results depend on the processing

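Counts of member regions that passed are given under each alternative that moved them by over 1.5 times. The cause was not tested unless stated. For H3K4me3 (1 region at 24 h against 0 h, 1 by the F test, 3 gained or lost), dropping peaks that scored below the median over all lists left 0, 0, and 1, equal numbers of top-scoring peaks left 0 and 0 by the tests, a pseudocount of 50 bp gave 2 at 24 h, as did fitting only the 4 lists at 0 h and 24 h and scaling by median peak length, and windows of 50 kb, which hold fewer regions, left 0, 0, and 1. For H3K27ac (5, 3, and 5), the score filter left 1, 1, and 3, requiring a peak in at least 5 lists, which tests fewer regions, left 2 and 0 by the tests, windows of 50 kb left 3 at 24 h, and leaving out regions that hold a peak of 5 kb or longer, chosen after seeing the data, left 3 at 24 h and 3 gained or lost. For the distal H3K27ac length per gene (0 of 8), windows of 50 kb gave 1, Myb (log2 difference 1.63, adjusted p = 0.0113). That window holds the region at -34.1 kb, listed only at 24 h with 7792 and 8327 bp. It also holds the peak of 4191 bp at -27.7 kb, found in 1 list at 24 h. The call is therefore no separate support.

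Leaving out 1 list gave 1 to 2 H3K4me3 regions at 24 h against 0 h (2 without replicate 1 at 2 h or either 24 h list), 0 to 1 by the F test (0 without replicate 2 at 0 h or replicate 1 at 24 h), and 5 to 7 gained or lost, where 1 list then stands for its time point. For H3K27ac it gave 2 to 5 (2 without either 0 h list or replicate 1 at 24 h, 3 without replicate 2 at 24 h), 1 to 5 by the F test (1 without replicate 1 at 0 h or at 24 h, 5 without replicate 1 at 2 h or replicate 2 at 12 h), and 8 to 16. A region whose peaks came from 2 lists could not be tested without either of them. Leaving out 1 list also removes the disagreement of its time point from the spread, so calls gained in this way are no support. For the distal length it gave 0 to 1, with Cdkn1b called without replicate 1 at 0 h (-1.08) and Ccnd2 without replicate 1 at 24 h (1.58). Same-numbered lists did not deviate together (correlations from -0.076 to 0.032 for H3K4me3 and -0.029 to 0.017 for H3K27ac over 10 pairs of time points), so the numbers did not pair the lists. With a replicate block, H3K27ac regions by the F test came to 5, and the other counts were 1 and 1 for H3K4me3, 5 for H3K27ac at 24 h, and 0 for distal length. No region that passed changed direction under the alternatives run. Signs turned only where neither value passed: the score filter took the start-site differences of Cdk4 and Cdkn1b H3K4me3 from 0.09 and 0.21 to -3.86 and -2.2, that of Myc H3K27ac from 0.11 to -2.56, and Myb distal length from 0.34 to -0.27, merging within 500 bp took Ccnd2 distal length from 0.75 to -0.08, scaling took Cdk6 H3K27ac from 0.03 to -0.03, and leaving out a 0 h or 24 h list turned others, such as Cdk4 H3K27ac (0.1 without replicate 2 at 24 h). Without replicate 2 at 24 h for Myb or replicate 1 at 24 h for Ccnd3 and E2f2, the start-site H3K27ac differences of Myb, Ccnd3, and E2f2 came to within 0.02 of 0. By the F test, the call at -81.4 kb of Myb was lost without replicate 2 at 0 h (adjusted p = 0.0509) or either 24 h list (0.065 and 0.0661). The depth is unknown, so a missing peak cannot be told from a mark below the caller's threshold.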
